A study of Mus musculus with 2 samples.

Results

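The genes described here are 8 regulators known for marking the passage from fetal to adult programmes in blood and other tissues: Lin28a, Lin28b, Igf2bp1, Igf2bp2, Igf2bp3, Hmga1, Hmga2 and Arid3a. They form a list of gene symbols, with no threshold on a measured value, and each was found by its Ensembl identifier among the 69691 rows of the gene tables, 21474 of them protein-coding genes, and with 34 of the 129984 transcripts. The cells were MEL, an immortalized mouse erythroleukemia line that resembles immature red cell precursors and is widely used because dimethyl sulfoxide (DMSO) makes it produce hemoglobin. All samples had been treated with 2% DMSO for 5 days, and total RNA was sequenced. The labels give a size range of 300 to 350 bases. There were 2 libraries of this 1 condition, numbered as biological replicates 1 and 2, although both point to 1 biosample entry. Their spread, and every p-value here, may therefore reflect technical variation in part. Untreated cells were not analysed here, so no value below says whether DMSO changed a gene. MEL is a single transformed line of unknown donor age, and its levels are not those of a fetal or an adult tissue.

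LIN28A and LIN28B are RNA-binding proteins that block the maturation of let-7 microRNAs, and they are high in embryonic stem cells and in the fetal liver. When they fall, mature let-7 accumulates and pairs through its seed with the messenger RNAs of many growth genes, among them those of HMGA2, the IGF2BP family and ARID3 factors. IGF2BP proteins bind, stabilise and localise messenger RNAs, HMGA proteins bend AT-rich DNA in chromatin, and ARID3A is an AT-rich DNA-binding transcription factor first studied in B cells. In human adult red cell precursors, forced LIN28B or IGF2BP1 is known to raise fetal globin.

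The sequences compared over these genes were the let-7 seed and its match. In RefSeq (GRCm38.p6), 11 let-7 family loci gave 9 different mature sequences, and all 11 had the seed GAGGUAG at bases 2 to 8. Of these sequences, 4 are shown 5′ to 3′ with the seed in capitals, because they differ outside the seed and share it exactly:
let-7a: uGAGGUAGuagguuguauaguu
let-7d: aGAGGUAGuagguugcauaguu
let-7g: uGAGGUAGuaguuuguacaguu
miR-98: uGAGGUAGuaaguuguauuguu

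The complement of that seed in a messenger RNA reads CTACCTC in DNA letters. It was searched on the transcribed strand of the longest annotated 3′ untranslated region (3′ UTR) of each protein-coding gene in GENCODE M21. All 8 genes had at least 1 match, whereas 1897 of 20998 genes, or 9.03%, had one. The list includes genes already known as let-7 targets, so this contrast follows in part from how the genes were chosen. The match nearest the stop codon of each gene is printed below on its own strand, with the 7 paired bases in capitals and the flanking bases in lower case:
Lin28a: gcctgttgaaCTACCTCatttt
Lin28b: ggcgggaagtCTACCTCatgca
Igf2bp1: gcgaagtaaaCTACCTCaaggt
Igf2bp2: caaataaaagCTACCTCaggtg
Igf2bp3: ttttactcaaCTACCTCaggta
Hmga1: tgttcacaaaCTACCTCtggac
Hmga2: cattcaatttCTACCTCagcat
Arid3a: aagtttctttCTACCTCaggtc

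In GRCm38 these stretches lie at chr4:134005185-134005206 (minus strand) for Lin28a, chr10:45381018-45381039 (minus) for Lin28b, chr11:95961774-95961795 (minus) for Igf2bp1 and chr16:22059469-22059490 (minus) for Igf2bp2. They lie at chr6:49086783-49086804 (minus) for Igf2bp3, chr17:27563282-27563303 (plus) for Hmga1, chr10:120364220-120364241 (minus) for Hmga2 and chr10:79953900-79953921 (plus) for Arid3a. In 7 of the 8 printed stretches the base after the match is an A, the base that lengthens a seed match to its strongest form. Hmga1 is the exception, and its only match is followed by T.

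The genes differed in how many matches they held. Lin28b, Igf2bp1 and Hmga2 each had 4, a number reached by only 12 of the 20998 genes, and Lin28a and Arid3a had 2. Igf2bp2, Igf2bp3 and Hmga1 had 1 each. These 3′ UTRs are long, from 1183 bases in Hmga1 to 6337 bases in Igf2bp1 against a median of 962 bases over all genes. For that reason each was set beside the 200 genes of nearest 3′ UTR length. Among those, between 8.5% (for the length of Hmga1) and 36% (for that of Igf2bp1) had a match, and for the lengths of Hmga2 and Igf2bp1 none of 200 had as many. For the lengths of Lin28a, Lin28b and Arid3a, 1.5%, 0.5% and 1.5% had as many. For those of Igf2bp2, Igf2bp3 and Hmga1, 12%, 14.5% and 8.5% had as many. Such matches are letters in an annotated transcript, and whether they are bound was not measured.

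**Figure D1:**
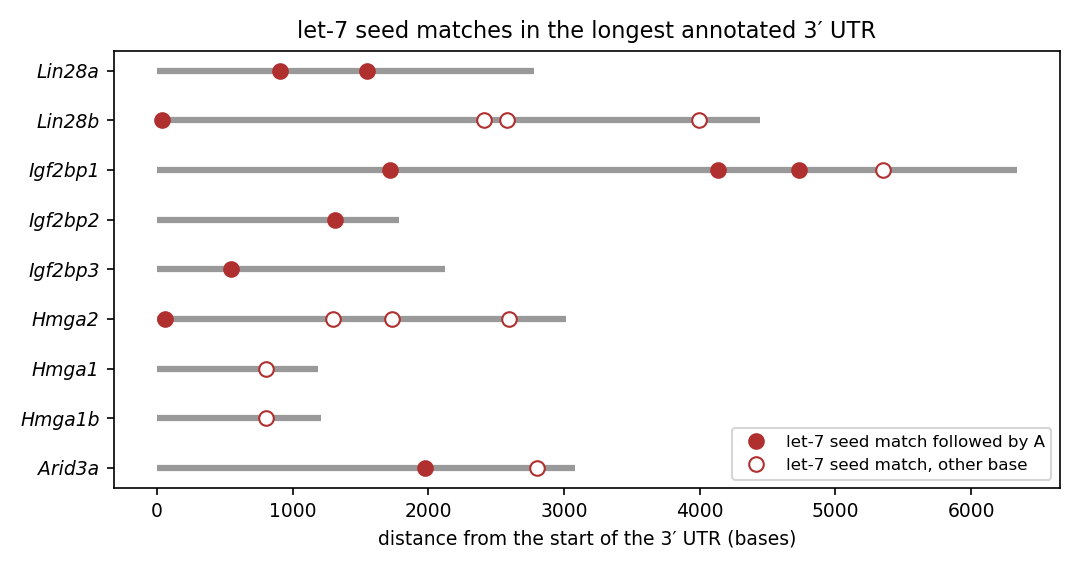
Position of each let-7 seed match along the longest annotated 3′ UTR of the 8 genes and of the gene Hmga1b, in bases from the start of the 3′ UTR; grey bars give its length, filled circles mark matches followed by A and open circles those followed by another base. Lin28b, Igf2bp1 and Hmga2 carry 4 matches each, and in Lin28b and Hmga2 the first lies 36 and 58 bases from the start.

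In the DMSO-treated cells, 2 of the 8 genes were expressed and 6 were nearly silent. Hmga1 and Arid3a reached 1 TPM (transcripts per 1000000, a level that accounts for transcript length) in both libraries. The other 6 had at most 15 estimated counts in either library, and together 31 counts in replicate 1 and 32 in replicate 2, out of 65109488 and 90856320 counts. Both outcomes are common: 8003 of 21474 protein-coding genes, or 37.3%, reached 1 TPM in both libraries, and 9796, or 45.6%, had no more than 15 counts in either. With 3 counts as the most that a count of 0 allows, the floor was 0.0461 CPM (counts per 1000000) in replicate 1 and 0.033 in replicate 2. Floors and intervals cover counting error only. In bulk RNA, fewer cells making a transcript and less RNA in each cell cannot be told apart.

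**Figure D2:**
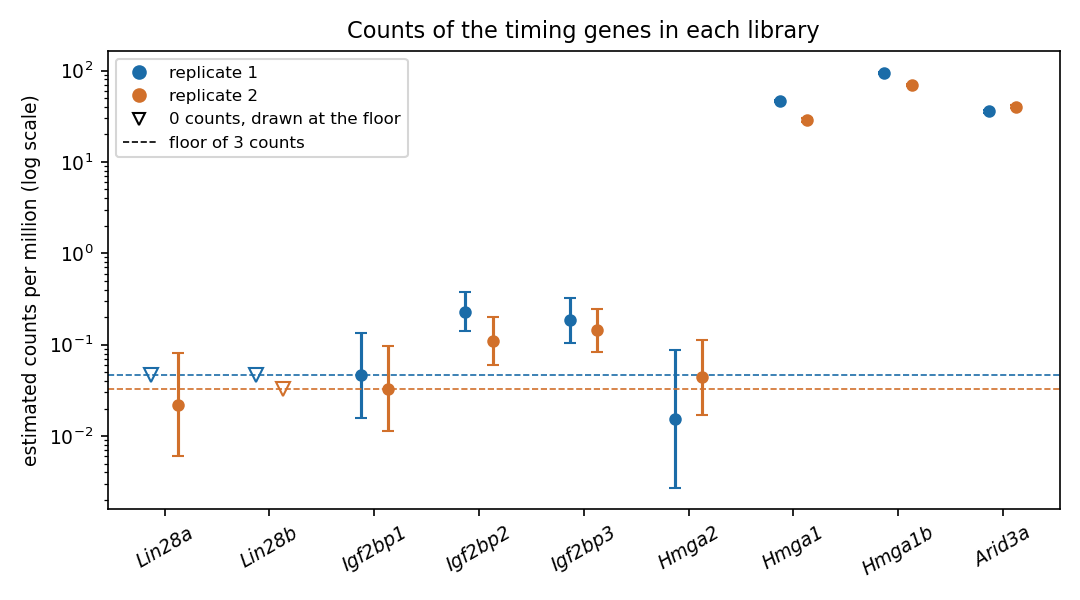
CPM of the 8 genes and of the near copy Hmga1b in replicate 1 and replicate 2, on a log axis, with 95% Wilson intervals; dashed lines mark the floor of 3 counts and open triangles genes with 0 counts. Hmga1, Hmga1b and Arid3a lie between 28.8 and 95.2 CPM, and no other gene exceeds 0.23.

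The LIN28 pair, at the top of the pathway, was at or under the floor. Lin28a (chr4:134003330-134018841, minus strand) had 0 counts in replicate 1 and 2 counts in replicate 2. Lin28b (chr10:45376620-45486395, minus strand), the paralog best known from fetal blood formation, had 0 counts in both libraries. For Lin28b the authors' own upper bound was 0.00235 TPM in replicate 1 and 0.00143 in replicate 2. Neither gene was therefore detected above what a count of 0 allows. Counted per length, Arid3a was at least 798-fold higher than Lin28b in replicate 1 and at least 1246-fold higher in replicate 2, taking 3 counts per library as the floor of Lin28b.

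Among the IGF2BP genes, Igf2bp2 and Igf2bp3 gave a few counts above the floor. Igf2bp1 (chr11:95957163-96005940, minus strand), whose protein binds MYC and beta-actin messages, had 3 counts in each library. Igf2bp2 (chr16:22059009-22163299, minus strand), which is also made in many adult tissues, had 15 counts in replicate 1 and 10 in replicate 2, or 0.04 and 0.01 TPM. Igf2bp3 (chr6:49085223-49214957, minus strand), a fetal and tumour-associated paralog, had 12 and 13 counts, or 0.01 TPM in each library. Igf2bp1 thus lay at the floor, while the other two were above it in both libraries and far below 1 TPM.

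Part of the Igf2bp2 signal was not assigned to messenger RNA. Transcripts annotated as non-coding, with retained introns, took 8.53 of its 15 counts in replicate 1 and 9.06 of its 10 in replicate 2. The coding transcript ENSMUST00000100052 received 6.47 counts and 0.94 counts. The authors' posterior standard deviation for it was 2.7 and 2.38 counts, so this division is loosely fixed. For Igf2bp3, all counts fell on its only transcript, which is coding. The annotated Igf2bp3 gene overlaps Malsu1, a mitochondrial ribosome factor on the opposite strand with 981 and 1307 counts. Whether the library kept strand is not given in the sources used here, so reads of the overlapping stretch could not be told apart, and their part in the 12 and 13 counts of Igf2bp3 was not tested.

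The HMGA genes differed from each other by 3 orders of magnitude. Hmga2 (chr10:120361275-120476469, minus strand), a fetal stem cell factor and classic let-7 target, had 1 count in replicate 1 and 4 in replicate 2. Hmga1 (chr17:27556497-27563674, plus strand), its widely expressed paralog, had 3032 estimated counts in replicate 1 and 2616 in replicate 2. The Hmga1 level was 10.8 TPM and 5.48 TPM, or 8.13 ± 3.75 TPM (SD, n = 2), above 89.8% of protein-coding genes. Counted per length, Hmga1 was 2003-fold above Hmga2 in replicate 2 (95% interval 782 to 7358). In replicate 1 the ratio rests on a single Hmga2 count and was 9503 (95% interval 1705 to 375518).

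Arid3a (chr10:79927043-79955018, plus strand) was the other expressed gene. It had 2336 counts in replicate 1 and 3661 in replicate 2, at 1.89 and 1.78 TPM, or 1.84 ± 0.078 TPM (SD, n = 2), above 67.8% of protein-coding genes. Its 2 TPM values nearly coincide, whereas those of Hmga1 differ widely. These values are not corrected for a shift of the whole scale, since the median TPM of expressed protein-coding genes was 4.84 in replicate 1 and 3.99 in replicate 2. Of its paralogs, Arid3b had 705 and 1382 counts (0.94 and 1.18 TPM), and Arid3c had 5 and 3 counts. Arid3a exceeded Arid3b per length by a ratio of 2.01 in replicate 1 (95% interval 1.85 to 2.19) and 1.5 in replicate 2 (1.41 to 1.60).

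The order of levels was therefore Hmga1, then Arid3a, then the 6 silent genes. Hmga1 exceeded Arid3a per length 5.70-fold in replicate 1 (95% interval 5.40 to 6.02) and 3.08-fold in replicate 2 (2.93 to 3.24). Arid3a exceeded Igf2bp2, the highest of the silent genes, 50.1-fold in replicate 1 (30.3 to 89.6) and 225-fold in replicate 2 (122 to 470). Below Igf2bp2 and Igf2bp3 the order has no support, since Lin28a, Igf2bp1 and Hmga2 rest on 4 or fewer counts each and changed places between the libraries. Igf2bp2 and Igf2bp3 were at 0.0378 and 0.0119 TPM in replicate 1 but at 0.00791 and 0.00776 in replicate 2, where they do not differ.

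Hmga1 has a near copy that shares its reads. Hmga1b is a single-exon gene on another chromosome (chr11:120762794-120764419, plus strand) and is annotated as protein-coding. Its transcript of 1626 bases was aligned with the leading Hmga1 transcript, ENSMUST00000114888, over 1563 bases, of which 1560 were identical. The 3 substitutions all lie in the 3′ UTR, at bases 657, 784 and 1246 of the Hmga1b transcript. The single gap is a coding stretch of 33 bases that Hmga1b has and ENSMUST00000114888 lacks. The same 33 bases occur in other transcripts of Hmga1, where alternative splicing is known to give the protein forms HMGA1a, with the insert, and HMGA1b, without it. The 3 versions are printed with the insert in capitals, from GENCODE M21 on GRCm38, because reads over this stretch separate the spliced forms but do not separate the Hmga1 form with the insert from the gene Hmga1b:
Hmga1 without the insert: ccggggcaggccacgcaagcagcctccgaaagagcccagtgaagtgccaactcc
Hmga1 with the insert: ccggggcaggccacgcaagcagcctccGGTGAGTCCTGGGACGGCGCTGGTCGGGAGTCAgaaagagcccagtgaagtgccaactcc
Hmga1b: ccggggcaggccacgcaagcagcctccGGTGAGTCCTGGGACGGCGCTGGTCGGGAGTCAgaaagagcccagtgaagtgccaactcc

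The Hmga1 stretch spans an exon junction between chr17:27559643-27560953 (plus strand), and the Hmga1b stretch is chr11:120762963-120763049 (plus strand). Both lie in coding sequence.

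**Figure D3:**
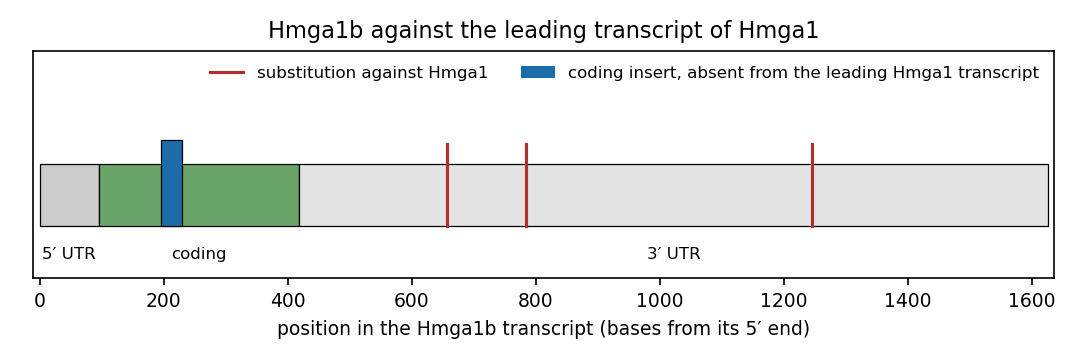
Map of the Hmga1b transcript, in bases from its 5′ end, with its untranslated and coding regions; red lines mark substitutions against the leading Hmga1 transcript and the blue box the coding insert of 33 bases. All 3 substitutions fall in the 3′ UTR, at bases 657, 784 and 1246.

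The authors' estimates assigned more to the copy than to Hmga1 itself. Hmga1b was given 6197 counts in replicate 1 and 6328 in replicate 2, at 17.5 and 10.8 TPM, or 14.1 ± 4.72 TPM (SD, n = 2). The counts of both genes were fractional, but their sums were whole, 9229 and 8944, and the authors' posterior standard deviations were the same for both genes, 53.7 counts in replicate 1 and 51.9 in replicate 2. Hmga1 held 32.8% and 29.2% of the summed counts. Per length, Hmga1b was 1.62-fold above Hmga1 in replicate 1 (95% interval 1.55 to 1.69) and 1.97-fold in replicate 2 (1.88 to 2.06). Hmga1b was thus assigned the higher level within each library, although Hmga1 in replicate 1 and Hmga1b in replicate 2 both stood at 10.8 TPM. The division between the genes is thus an estimate, while the summed counts do not depend on it. As levels the pair summed to 28.2 TPM in replicate 1 and 16.3 TPM in replicate 2, or 22.3 ± 8.47 TPM (SD, n = 2).

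Both spliced forms of Hmga1 were assigned reads. Transcripts without the insert held 56.7% of the Hmga1 level in replicate 1 and 59.2% in replicate 2, or 58.0% ± 1.74 (SD, n = 2). Those with the insert held 43.3% and 40.8%. ENSMUST00000114888, without the insert, led with 47.1% and 51.8%, and ENSMUST00000119486, with it, followed with 42.3% and 39.7%. These shares carry the uncertainty of the near copy, since Hmga1b has the insert. Some annotated lengths also changed between annotation releases, for example from 1593 bases for ENSMUST00000114888 in the authors' tables to 1631 in M21. AI413582, a gene on the opposite strand that overlaps Hmga1, had 688 and 1233 counts, and its part in those of Hmga1 was not tested.

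Arid3a was carried mainly by 1 transcript. ENSMUST00000019708 held 81.9% of the Arid3a level in replicate 1 and 90.2% in replicate 2, or 86.0% ± 5.81 (SD, n = 2). ENSMUST00000105376, with the same 1803 coding bases but a shorter transcript (4892 against 5361 bases), held 18.1% and 9.41%. The authors' posterior standard deviation was 67.7 and 63.8 counts for this second transcript, which had 390 and 317 counts, so its share is loosely fixed in each library.

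**Figure D4:**
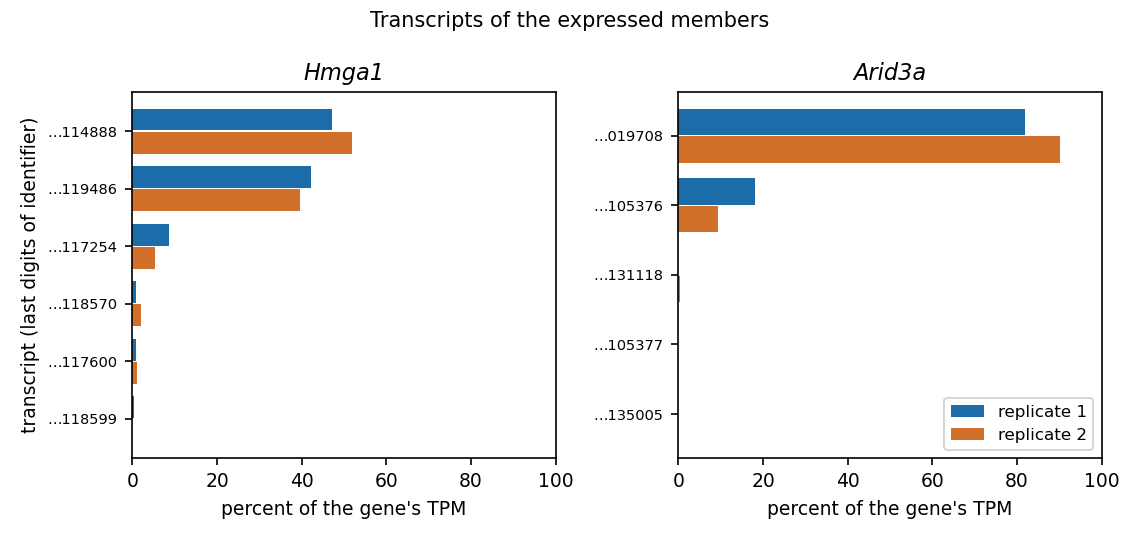
Percent of the gene's TPM that the authors assigned to each annotated transcript of Hmga1 and of Arid3a, in replicate 1 and replicate 2. Hmga1 is divided mainly between a transcript without the coding insert (47.1% and 51.8%) and one with it (42.3% and 39.7%), and Arid3a is carried mainly by 1 transcript (81.9% and 90.2%).

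The libraries were then compared gene by gene, to show how far each value repeats. The exact two-sided binomial test compared the reads of these 2 libraries, not conditions, on TMM-scaled counts, and a gene was called at a Benjamini-Hochberg adjusted p under 0.05 with a difference of 2-fold or more. Of the 8 genes, 4 had the 10 counts needed in at least 1 library, and 0 of these 4 were called, against 6.49% of all rows tested (992 of 15275). At the adjusted p alone, without the fold, Hmga1 and Arid3a passed, as did 62% of all rows tested, so that passing it says little at this depth. Lin28a, Lin28b, Igf2bp1 and Hmga2 were not tested.

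Hmga1 was lower in replicate 2, within 2-fold (log2 ratio -0.66, 95% interval -0.74 to -0.59, adjusted p = 2.2e-65 by the exact binomial test). Hmga1b had a log2 ratio of -0.42 (-0.47 to -0.37). Summed before the test, which was chosen after the data were seen, the pair gave -0.50 (-0.54 to -0.45). The TPM of Hmga1 differed more than its scaled counts did, and the median TPM of expressed protein-coding genes also fell, from 4.84 in replicate 1 to 3.99 in replicate 2. All rows share each library's TPM total, and protein-coding genes held only 13.5% and 12.9% of it.

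The remaining 3 tested genes moved less or could not be resolved. Arid3a was slightly higher in replicate 2 (log2 ratio 0.20, 95% interval 0.12 to 0.27, adjusted p = 5.7e-07 by the exact binomial test), between the quartiles of protein-coding genes, -0.25 and 0.26. Igf2bp2 had a log2 ratio of -1.01 with an interval from -2.35 to 0.22 (adjusted p = 0.148, exact binomial test). Igf2bp3 had -0.34 with an interval from -1.58 to 0.93 (adjusted p = 0.625, exact binomial test). At 10 to 15 counts a difference of 2-fold was not detectable for these IGF2BP genes.

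Red cell genes differed between the libraries in the direction opposite to Hmga1. The cells carried the red cell programme in both libraries: all 10 red cell markers were at 1 TPM or more, among them the master regulator Gata1 (57.4 and 64.3 TPM) and the lowest, Slc4a1, the anion exchanger of mature red cells (1.33 and 5.99 TPM). Of these 10 markers, 6 were called higher in replicate 2 and none lower, and together they stood at 6351 TPM in replicate 1 against 13238 in replicate 2. All 4 adult globins, among them the globin markers just named, were called higher in replicate 2, with log2 ratios from 1.15 (Hba-a1) to 1.46 (Hbb-bs). Their part in the difference of Hmga1 between the libraries was not tested. Of other cell types, none of the 6 pluripotent cell markers exceeded 3 counts, with Sox2, Dppa5a, Zfp42 and Tdgf1 at 0 counts in both libraries, and no granulocyte, lymphoid or stromal marker reached 1 TPM. Of 4 megakaryocyte markers 3 did, with a summed level of 47.3 and 45.0 TPM. Of these markers Itga2b, an integrin subunit of platelets, was called higher in replicate 2 (11.1 and 19.1 TPM, log2 ratio 1.12), while Pf4 (34.1 and 24.7 TPM, -0.20) and Gp5 (1.94 and 1.08 TPM, -0.57) were not called. Their part in the differences of the timing genes was not tested.

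**Figure D5:**
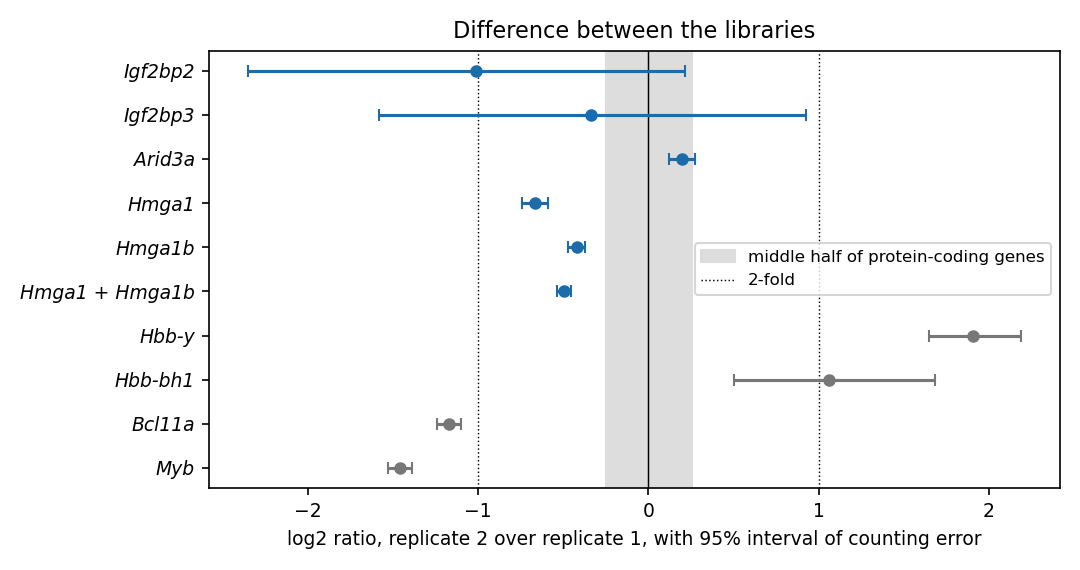
Log2 ratio of TMM-scaled counts, replicate 2 over replicate 1, with 95% exact intervals of counting error, for the tested timing genes, Hmga1b and the Hmga1 pair (blue) and for embryonic globins and globin timing factors (grey); the band spans the quartiles of protein-coding genes and dotted lines mark 2-fold. Hmga1 lies at -0.66 and Arid3a at 0.20, both inside 2-fold, while Hbb-y lies at 1.91 and Myb at -1.46.

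Adult globins were high in both libraries, while embryonic globins were low. The adult globins, oxygen carriers of definitive red cells, summed to 6359 TPM in replicate 1 and 13364 in replicate 2. The embryonic globins Hbb-y, Hbb-bh1 and Hba-x summed to 1.77 and 4.42 TPM. Only Hbb-y among them reached 1 TPM in both libraries, at 1.11 and 3.49 TPM. Of the 3 embryonic globins 2 were called higher in replicate 2: Hbb-y, with 136 and 700 counts (log2 ratio 1.91, 95% interval 1.65 to 2.19), and Hbb-bh1, with 34 and 98 counts (1.06, 0.50 to 1.69). Hba-x stood at 0.35 and 0.39 TPM. Of 7 factors known to act on globin timing, 1 was called higher in replicate 2, Sox6 (0.65 and 0.99 TPM, log2 ratio 1.06). Called lower were 3: Bcl11a, the fetal globin repressor (4.21 and 1.42 TPM, log2 ratio -1.17), Myb, a progenitor factor (6.31 and 1.87 TPM, -1.46), and Nfia (1.43 and 0.40 TPM, -1.53). The highest of the list, Klf1, an activator of adult beta-globin, stood at 32.9 and 30.7 TPM, followed by Zbtb7a at 5.56 and 4.79 and Nfix at 4.26 and 2.74. The median log2 ratio of these 7 factors was -0.30, against 0.016 over protein-coding genes. These lists were chosen with earlier results of these data known, and their counts are descriptions.

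Apart from LIN28 itself, the machinery that makes and destroys let-7 was expressed. Of 13 genes, 12 reached 1 TPM in both libraries and 0 were called between them. Tarbp2, a Dicer partner, was highest at 18.0 and 14.4 TPM, followed by Drosha, which cuts the primary transcript (9.16 and 6.62 TPM), and Dgcr8, its partner (6.72 and 4.53 TPM). The lowest was Trim71, a let-7 target and stem cell ubiquitin ligase, with 10 counts in replicate 1 and 4 in replicate 2, so that it was nearly silent as well. The let-7 precursor genes cannot be read from these tables. Of 12 precursor names 10 matched, and all 10 had 0 counts, but their effective length in the tables was 0, at which no TPM can be formed.

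Other messages known as let-7 targets were mostly on. Of 16 genes, 13 reached 1 TPM in both libraries, and 0 of the 15 tested were called. The highest were the growth regulators Hras (23.2 and 11.4 TPM), Ccnd2 (11.2 and 11.4 TPM) and Myc (13.3 and 7.29 TPM), and the lowest was Igdcc3, with 0 counts in both. A seed match in itself went with no lower share of expressed genes. Of 1875 genes with a match and a row in the tables, 42.1% reached 1 TPM in both libraries, against 38.2% of 18777 genes without one. Genes with a match have longer 3′ UTRs (median 2282 against 875 bases). Of the 12 genes with 4 or more matches, 2 reached 1 TPM in both libraries: D10Wsu102e, whose annotated 3′ UTR of 122583 bases stands apart, and Hic2, a zinc finger repressor (1.38 and 1.06 TPM). Nr6a1, with 8 matches the highest of all genes, was at 1.23 and 0.82 TPM. Besides Lin28b, Igf2bp1 and Hmga2, the ones with 10 counts or fewer in both libraries were Nudt12, Trim6, Ptafr and Trim71, named after their values were seen.

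Messages of the proteins that share particles with IGF2BP were expressed, although the IGF2BP genes were nearly silent. All 8 partners reached 1 TPM in both libraries and 0 were called. Ybx1, a cold-shock RNA-binding protein, was highest at 105.5 and 73.7 TPM. Dhx9, a helicase, stood at 14.4 and 11.0 TPM, and Stau1 was lowest (3.66 and 2.92 TPM). Of 13 genes that write, read or erase N6-methyladenosine, a mark that IGF2BP proteins bind, 12 reached 1 TPM and 0 were called. Rbm15 (11.5 and 9.63 TPM), Alkbh5 (9.90 and 7.65 TPM) and Wtap (6.78 and 6.84 TPM) led, and Mettl14, a subunit of the writer, was lowest (1.15 and 0.82 TPM).

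Known IGF2BP client RNAs were divided. Of 8 clients 4 reached 1 TPM in both libraries, led by Actb (277.5 and 240.6 TPM). Cd44, a cell surface adhesion receptor, stood at 4.17 and 1.44 TPM. Cd44 (log2 ratio -1.23) and Gli1, a Hedgehog transcription factor (0.24 and 0.10 TPM, -1.05), were called lower in replicate 2. Igf2, the growth factor after which the family is named, and Mapk4 had 0 counts in both libraries. Of 9 imprinted fetal growth genes, Igf2 among them, 0 reached 1 TPM in both. The highest, the cell cycle inhibitor Cdkn1c, stood at 1.17 and 0.75 TPM, and its log2 ratio of -0.37 was not called. H19 had 1 count in each library.

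Most of the listed HMG box, HMGN and other ARID genes were expressed. Of 8 HMG box and HMGN genes 6 reached 1 TPM in both libraries, and 0 were called. Hmgb1, a DNA-bending chromatin protein, was highest (59.3 and 44.9 TPM), then Ssrp1 (29.1 and 24.1 TPM) and Hmgn2 (22.6 and 18.0 TPM), while Hmgn3 had 0 counts. Of 9 other ARID genes 6 reached 1 TPM and 0 were called. Arid2 (4.57 and 4.18 TPM), Arid1a (4.47 and 2.96 TPM) and Arid1b (3.38 and 2.55 TPM), all subunits of chromatin remodelling complexes, led, and Arid5b was lowest with 1 count in replicate 1 and 3 in replicate 2.

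The nearest neighbours of the 6 silent genes were expressed in part. Of their 12 nearest protein-coding neighbours, examined after the members' values were seen, 6 reached 1 TPM in both libraries, and 5 of the 6 silent genes had such a neighbour. Over all protein-coding genes the share at 1 TPM was 37.3%. Bves, 4141 bases from Lin28b, and Gpnmb, 14294 bases from Igf2bp3, had 0 counts in both libraries. Dhdds, 2412 bases from Lin28a, stood at 3.01 and 2.05 TPM, and Hace1, 91434 bases from Lin28b, at 2.95 and 3.86 TPM. Tra2b, a splicing factor gene 81250 bases from Igf2bp2, reached 28.8 and 20.8 TPM. Igf2bp1 was the exception, with B4galnt2 at 0.13 and 0.12 TPM and Gip at 0.10 and 0.03 TPM on its sides.

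Of the 2 expressed genes only Hmga1 had a start region to compare, so whether base composition separates expressed from silent genes was not tested. The CG dinucleotide, which reads the same on both strands, was counted in RefSeq windows of 300 bases around the start site (GRCm38.p6), where 6 of the 8 genes matched. The silent Igf2bp2 had 47, a number that 1.44% of 32851 windows reach, and the expressed Hmga1 had 40 and 38 in its 2 windows. Igf2bp3 had 25, Hmga2 12, Lin28a 10 and Lin28b 8, against a median of 7, and the copy Hmga1b had 8. Arid3a and Igf2bp1 were not in the table.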

How the data were processed

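The authors deposited gene-level and transcript-level tables for each library, made on mouse genome mm10 with GENCODE M4, per their readmes. Aligner, counter and strand setting were not given in the sources used here. The tables as deposited hold, per the file headers, the estimated count, TPM, FPKM, posterior means and standard deviations of the count, bounds of an interval of TPM, and for transcripts the percent of the gene's TPM. The authors' interval bounds are treated as a score in TPM units, of unstated level. The TPM total is 1000000 over all rows as deposited, short RNAs included.

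Names, coordinates (1-based) and 3′ UTRs came from GENCODE M21 on GRCm38, joined by identifier without version, which matched 42462 of 43346 Ensembl rows. The symbols of the 8 genes and of all gene lists were picked with earlier results of these data known, though the rule for finding the 8 uses no measured value. Named list genes are the 3 highest and the lowest by mean TPM and every called one, except 2 that are not reported here. Counts were rounded, scaled by TMM (edgeR 4.0.16, R 4.3.3), given a pseudocount of 0.5 for ratios and compared by an exact two-sided binomial test with Benjamini-Hochberg adjustment in rows where either library had at least 10 counts. The test was checked on simulated counts that held counting error only, so the check does not cover other variation between these libraries. Ratio intervals are 95% Clopper-Pearson. Sequences were aligned with biopython 1.88. The libraries were not duplicates (chi-square of 258 per degree of freedom over 22873 rows). Alternatives were DESeq2 1.42.0 size factors, other measures, thresholds and filters, and each library left out.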

Additional observations from a re-analysis of the deposited data

How the results depend on the processing

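The 2 expressed genes were the same number under thresholds of 0.1 and 0.5 TPM, under FPKM, posterior mean TPM and TPM rescaled to protein-coding genes, and without replicate 1 or 2, while at 5 TPM the number was 1. Rows called between the libraries numbered 992, and 521 with a count minimum of 50, 2464 at 1.5-fold and 9469 with no minimum fold. Of the 8 genes 0 were called, and 1 at 1.5-fold and 2 with no minimum fold; the other alternatives, the Hmga1 pair summed among them, gave 0. Log2 ratios ranged from -0.69 to -0.66 for Hmga1 alone (-0.50 for the pair summed) and from 0.17 to 0.20 for Arid3a, and none of the 4 tested genes changed direction. The share of Hmga1 in its leading transcript was 60.2% by estimated counts in place of 49.5% of TPM. No paired analysis was possible because there is 1 group. Depth limits the silent genes: at 15 counts or fewer a 2-fold difference between the libraries is not detectable, and their rank among genes moved with the measure of level, from 0% to 41.8% of protein-coding genes below Lin28a.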
